A study of Homo sapiens with 12 samples.

Results

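The transcriptome of Axl-deficient SNU449 cells with acquired resistance to Regorafenib (Rego) was compared with that of the same line before drug adaptation. SNU449 is an established human hepatocellular carcinoma (HCC) line, and SNU449-Axl- is its derivative in which the receptor tyrosine kinase Axl had been removed with CRISPR/Cas9. Control (naïve) SNU449-Axl- cells provided 3 libraries and Rego-resistant SNU449-Axl- cells another 3, which makes 6 of the 12 libraries sequenced. The other libraries come from control and Rego-resistant SNU449 cells, with 3 each, and serve below as the Axl-proficient background. Resistant cells had been selected under stepwise increasing Rego up to 2 x IC50 and were fed with the drug after each splitting, so that adaptation and drug presence act together in every resistant library. The 3 libraries of a group are technical triplicates of 1 cell population, and SDs, SEs and p-values therefore cover the spread between libraries and not that between independently selected populations. A difference between the groups cannot be told apart from a difference between these particular populations.

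Axl is bound by its ligand Gas6 and forms, with Tyro3 and MerTK, the TAM family of receptors, which signal to survival and motility pathways. Rego inhibits several kinases at once, among them VEGF, PDGF and FGF receptors, KIT, RET and RAF kinases. HCC cells that survive kinase inhibitors are known to change their matrix and adhesion genes, their antioxidant and drug-metabolizing enzymes and their inflammatory signaling, and the groups of genes below were chosen along these lines.

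The values of a gene are given as deposited, as 1 whole number per library, termed library value. It is a variance-stabilized expression level from which the authors had removed the effect of the preparation date, taken out of the log2 scale, and it is not a read count. Variance stabilization pulls weakly expressed genes together, and a gene without reads still has a library value well above 0 (termed the floor, at library values of about 100 and less), so that a log2 difference between library values understates the fold change of such genes. Its ratio to the log2 difference on the count scale was taken over genes with a count-scale difference of at least 1, called or not. The median ratio was 0.459 at mean normalized counts from 50 to 200 and 0.944 above 1000. For genes with enough reads, a fold change on the count scale is added, which was solved from the authors' mean normalized counts over each of 6 pairs of groups and has no test. The floor and ratios above apply to the values of the 6 SNU449-Axl- libraries. In the table over all 12 libraries, used for comparisons with SNU449 cells, the floor is lower. There, UCHL1 had a log2 library value of 4.48 in Rego-resistant cells. Log2 differences of a gene can be larger in that table, for example 3.40 instead of 2.55 for AKR1B10. Depth per library is unknown.

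AXL itself was checked first, on the table over all libraries. Its log2 library value was 5.35 ± 0.38 before and 5.57 ± 0.22 after adaptation in SNU449-Axl- cells (SD, n = 3 each), against 9.62 ± 0.22 before and 10.09 ± 0.37 after adaptation in SNU449 cells. The difference from SNU449 cells was -4.27 in control and -4.51 in resistant cells on the log2 scale, so that the libraries matched their labels for Axl. The labels for control and Rego-resistant cells could not be checked with AXL, which was not called between them in either background. Of markers of the line, VIM and KRT18 were high in all 6 libraries, with library values from 15598 to 25848 and from 912 to 1698. The hepatic marker AFP was near the floor, from 89 to 108, and ALB and APOA1 were not among the genes tested. Of 25 markers of blood, endothelial and fibroblast-lineage cells 7 were tested, of which 5 lay between 80 and 106 in every library, while COL1A1 and RGS5 had higher values in control libraries and fell. The summed library value of the 7 markers was 1571 to 2683 in control and 772 to 1047 in Rego-resistant libraries.

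Acquisition of Rego resistance in the Axl-deficient background was accompanied by changes in 818 of 14287 genes tested (5.73%, limma with the replicate number as a block, Benjamini-Hochberg adjusted p under 0.05). Of these, 472 were higher (3.3%) and 346 lower (2.42%) in Rego-resistant cells, and 109 changed by at least 1 on the log2 scale. The libraries of the groups did not overlap in 815 of the 818 genes, compared to 40.7% of all genes tested (20.8% higher and 19.9% lower in resistant libraries). When the libraries were centred on the spike-in RNAs, which raised the median of all genes from 0.00 to 0.11, 792 genes were called, of which 640 were higher and 152 lower. The split into higher and lower genes thus depends on the scaling, and changes below are relative to the bulk of the genes. Without the block, 3566 genes were called. With replicate 1, 2 or 3 left out, which leaves 1 residual degree of freedom, 0, 1 and 0 genes passed. In the table over all 12 libraries, in which 682 genes were called, leaving out replicate 1, 2 or 3 from the fit gave 217, 88 and 553 calls, and 39 of the 150 called genes chosen by the rule for named genes passed whichever replicate was missing, among them MMP7, SPP1, FN1, DSP, LAMA4, GBP2, GBP4 and ITGA5. All 818 genes kept their direction in each of these settings.

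**Figure D1:**
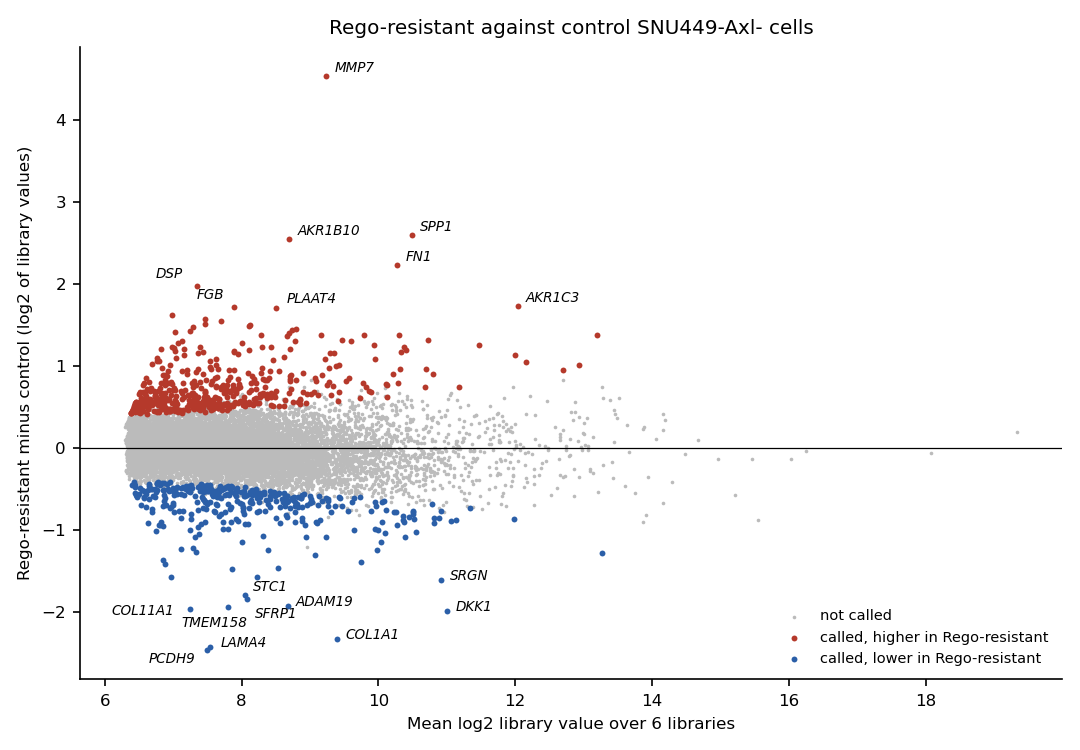
Difference between Rego-resistant and control SNU449-Axl- cells for each of the 14287 genes tested (y axis, log2 of library values, n = 3 libraries each) against the mean log2 library value over the 6 libraries (x axis). Red points are the 472 genes called higher and blue points the 346 called lower. MMP7 stands apart at 4.54, and the labelled falls reach -2.47.

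The largest rise was that of MMP7, the gene of matrilysin, a secreted protease that cleaves matrix and cell surface proteins (chr11:102520508-102530750 on GRCh38). Its library values were 132, 100 and 148 in control cells, close to the floor, and 2750, 3626 and 2459 in Rego-resistant cells. The groups were far apart, with a difference of 4.54 ± 0.20 on the log2 scale (SE, limma adjusted p = 4.55e-09). The promoter of MMP7 is shown because this gene leads the comparison. The sequence is from RefSeq (GRCh38.p14, chr11:102530698-102530997, minus strand, 250 bases before to 50 bases after the start), with a match to the AP-1 motif TGACTCA on either strand in capitals. This motif, 67 bases before the start, occurs in 4.95% of all 35116 promoters of that length, and the match is a description only.
MMP7: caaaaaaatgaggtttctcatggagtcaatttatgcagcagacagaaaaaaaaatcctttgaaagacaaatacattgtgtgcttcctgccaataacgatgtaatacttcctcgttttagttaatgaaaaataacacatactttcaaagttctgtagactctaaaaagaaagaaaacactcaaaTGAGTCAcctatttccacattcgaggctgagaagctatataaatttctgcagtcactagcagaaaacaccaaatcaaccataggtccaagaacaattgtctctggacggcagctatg

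Osteopontin, encoded by SPP1 and an integrin ligand secreted by many HCCs, had library values of 724, 444 and 619 in control and 2843, 4639 and 3326 in Rego-resistant cells. The groups were well separated, with a log2 difference of 2.59 ± 0.23 (adjusted p = 1.29e-05) and a 6.82-fold rise on the count scale. The aldo-keto reductase AKR1B10, which reduces reactive aldehydes and retinal, rose from 218, 123 and 188 to 789, 1398 and 916, by 2.55 ± 0.23 (adjusted p = 1.30e-05). Fibronectin, FN1, moved from 633, 391 and 752 to 2420, 3916 and 2036, a log2 difference of 2.23 ± 0.27 (adjusted p = 0.000151) and 5.03-fold by counts. Desmoplakin, DSP, which anchors keratin filaments in desmosomes, was near the floor in control cells with 83, 78 and 87 and reached 322, 346 and 308 after adaptation (log2 difference 1.98 ± 0.12, adjusted p = 3.64e-07). The remaining genes of the 15 with the largest rises were AKR1C3 (1.73), the fibrinogen chain FGB (1.72), PLAAT4 (1.71), the Na,K-ATPase regulator FXYD6 (1.62), the chaperone CLGN (1.57), the activin subunit INHBB (1.55), the interferon-induced GTPase GBP4 (1.51), the adaptor FYB1 (1.50), syndecan 2, SDC2 (1.48), and MAT1A (1.48), the methionine adenosyltransferase of adult liver. The 15 genes were picked among called genes without overlap between the groups, so their separation is part of the choice and no added support. Their limma adjusted p-values were at most 0.000513.

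The largest falls are given first for 4 of the 15 genes. Protocadherin 9, PCDH9, had library values of 334, 355 and 643 in control and 97, 91 and 51 in Rego-resistant cells, a fall of 2.47 ± 0.25 on the log2 scale (limma adjusted p = 3.39e-05). Laminin alpha 4, LAMA4, a chain of vascular and mesenchymal basement membranes, went from 443, 442 and 409 to 78, 78 and 84, and thus to the floor (log2 difference -2.43 ± 0.13, adjusted p = 2.97e-08). The fibrillar collagen gene COL1A1 gave 949, 2041 and 1764 in control libraries and 476, 221 and 256 in resistant ones, 6.67-fold lower by counts (log2 difference -2.33 ± 0.29, adjusted p = 0.000213). For DKK1, a secreted Wnt inhibitor and one of the most abundant of these transcripts, control values were 4643, 2769 and 5323 and resistant values 912, 1529 and 795, a difference of -1.98 ± 0.28 (adjusted p = 0.000601). Calls of COL1A1, PCDH9 and COL11A1 were lost when variances were moderated robustly (adjusted p = 0.0773, 0.0735 and 0.109). The other large falls were those of the collagen COL11A1 (-1.96), TMEM158 (-1.93), the metalloprotease ADAM19 (-1.92), the Wnt antagonist SFRP1 (-1.85), stanniocalcin, STC1 (-1.80), the proteoglycan SRGN (-1.61), the MAX partner MGA (-1.58), epiregulin, EREG (-1.57), CCBE1 (-1.48), a cofactor of VEGF-C processing, the calcium channel subunit CACNA2D3 (-1.46) and ARMCX3 (-1.41).

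**Figure D2:**
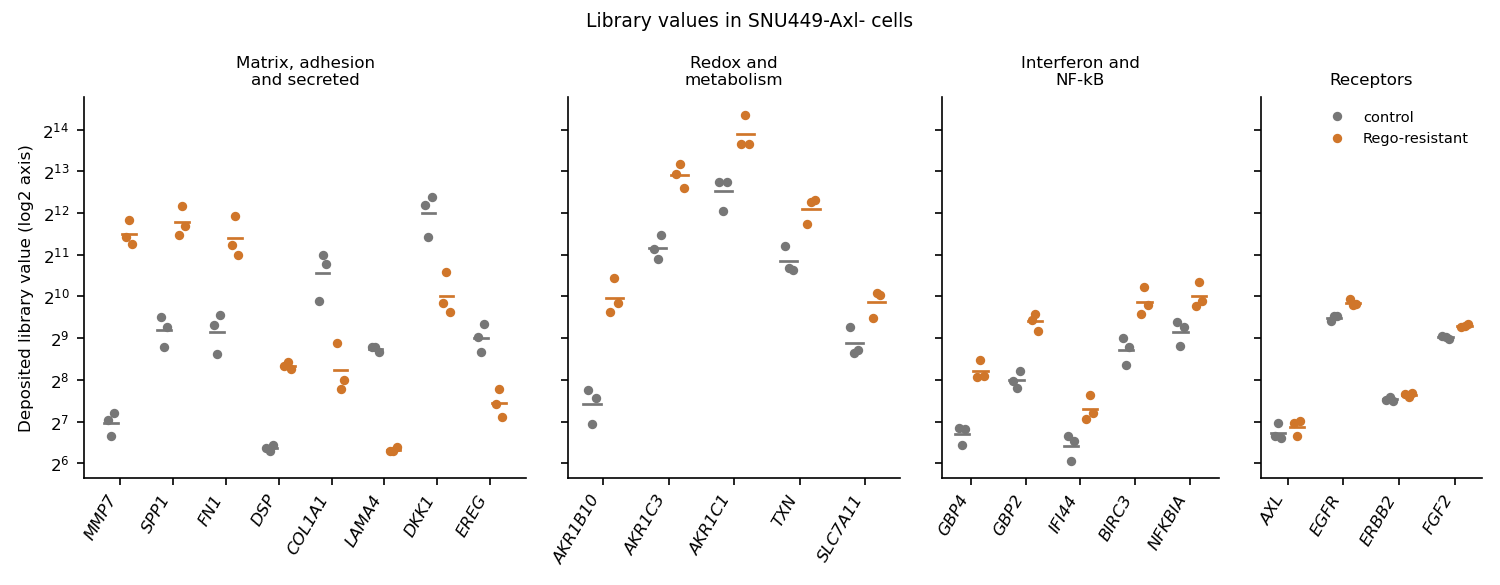
Library values of named genes in control (grey) and Rego-resistant (orange) SNU449-Axl- cells, on a log2 axis, with 1 point for each of 3 libraries and a line at their geometric mean. MMP7 rises from 100 to 148 in control libraries to 2459 to 3626 in resistant ones, while the points of AXL overlap between groups.

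Genes of the extracellular matrix moved in both directions. Of 28 collagens and collagen-processing genes tested, 2 rose and 5 fell. The falls comprised COL1A1, COL11A1, COL13A1 (-0.99), COL5A2 (-0.90) and COL5A1 (-0.87), that is 4 chains of fibrillar collagens and 1 transmembrane collagen. With robust moderation the list had 2 falls, as COL1A1, COL11A1 and COL5A1 lost their calls. The call of COL5A1 was also lost in 3 other settings, without the block, without a trend and in the table over all libraries (adjusted p = 0.0575, 0.0573 and 0.176). The rises were those of COL18A1, a basement membrane collagen, from 581, 564 and 513 to 1359, 1400 and 1539 (1.37 ± 0.17, adjusted p = 0.000182), and of COL27A1 (0.69). Among 37 laminins, integrins and other adhesion ligands, 8 rose and 6 fell. Besides SPP1, FN1 and SDC2, the integrin subunit ITGB4, which builds hemidesmosomes on laminin, went up from 199, 169 and 219 to 493, 581 and 446 (1.37 ± 0.16, adjusted p = 0.000102). Of other integrin subunits, ITGA5 fell from 195, 197 and 167 to 69, 68 and 80 (-1.37 ± 0.13, adjusted p = 1.70e-05) and ITGB3 from 232, 266 and 261 to 162, 141 and 144 (-0.76 ± 0.13, adjusted p = 0.00284). Thus FN1 RNA was higher while that of ITGA5, a chain of the classical fibronectin receptor, was at the floor of the library values. Thrombospondin 1, THBS1, also fell, by 1.04 on the log2 scale.

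Of 28 matrix proteases and their inhibitors, 4 rose, namely MMP7, ADAMTS9 (1.20), ADAMTS12 (0.62) and MMP16 (0.51). The 3 that fell were ADAM19, the urokinase receptor PLAUR, with 316, 316 and 309 in control and 157, 157 and 160 in resistant libraries (-0.99 ± 0.13, adjusted p = 0.000263), and the metalloprotease inhibitor TIMP1 (-0.78, 1.83-fold lower by counts). The rise of MMP7 exceeded all other changes in this list.

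Markers of epithelial plasticity also included rises and falls. Of 20 transcription factors and mesenchymal markers of epithelial to mesenchymal transition (EMT), 2 rose, FN1 and S100A4, and 6 fell, with a median of -0.15 over the list against 0.00 over all genes. Apart from COL1A1 and ITGB3, the falls were those of the fibroblast protease FAP (library values 142, 147 and 176 against 87, 84 and 71, -0.94 ± 0.13, adjusted p = 0.000611), the ectonucleotidase NT5E (-0.63) and the EMT transcription factors SNAI1 (-0.60) and SNAI2 (-0.54). S100A4 rose from 199, 218 and 199 to 497, 452 and 497 (1.23 ± 0.14, adjusted p = 9.49e-05). Vimentin was 20906, 25848 and 23213 in control and 19285, 15598 and 17368 in resistant libraries (log2 difference -0.42, adjusted p = 0.360), and N-cadherin, CDH2, 397, 790 and 617 and 580, 292 and 373 (-0.54, adjusted p = 0.250), so that neither passed the test. With spike-in centring 3 falls were called in this list. Of 15 epithelial junction and identity genes 3 rose and 0 fell, the rises being DSP, the desmosomal cadherin DSC2 (0.68) and the tight junction protein TJP1 (0.81), and of 8 keratins none was called. KRT8 came closest with 396, 404 and 404 against 586, 573 and 573 (0.52, adjusted p = 0.0505).

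Hepatocyte and plasma protein genes included several rises. Of the 22 tested of 52 hepatocyte and plasma protein genes listed, 6 rose and 1 fell. Retinol-binding protein, RBP4, rose from 96, 77 and 70 to 179, 222 and 246 (1.41 ± 0.15, adjusted p = 5.61e-05), and AMBP, the alpha-1-microglobulin precursor, from 245, 173 and 269 to 485, 687 and 442 (1.23 ± 0.20, adjusted p = 0.00172). The oncofetal proteoglycan glypican 3, GPC3, went from 73, 78 and 72 to 162, 151 and 164 (1.10 ± 0.12, adjusted p = 5.61e-05). All 3 fibrinogen chains rose, FGB by 1.72, FGG by 0.90 and FGA by 0.43. These chains lie side by side on chromosome 4, where neighboring genes were raised as well (below), and AMBP lies on chromosome 9, so that 4 of the 6 rises were on chromosomes with raised medians. The part of the chromosomes in these rises was not tested. The transcription factor GATA4 fell from 131, 125 and 117 to 72, 75 and 80 (-0.72 ± 0.12, adjusted p = 0.00225).

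The highest median of all lists was that of targets of NRF2, the transcription factor that induces antioxidant genes, and other antioxidant enzymes. Of 45 members tested, 14 rose and 1 fell, with a median of 0.46 over the list and medians of the same-numbered library pairs from 0.12 to 0.73. The aldo-keto reductases led the group. AKR1C3 rose from 2239, 1919 and 2863 to 7884, 9202 and 6167 (1.73 ± 0.24, adjusted p = 0.000475, 3.20-fold by counts). AKR1C1 went from 6861, 4239 and 6905 to 12959, 20974 and 12876 (1.37 ± 0.28, adjusted p = 0.00915) and AKR1C2 from 5863, 4609 and 6200 to 10474, 13325 and 9905 (1.01 ± 0.24, adjusted p = 0.0211). As AKR1C1, AKR1C2 and AKR1C3 are related in sequence, reads may have been divided between them, and their single values are uncertain. Thioredoxin, TXN, which reduces protein disulfides, rose from 2380, 1642 and 1596 to 3400, 4928 and 5071 (1.26 ± 0.24, adjusted p = 0.00525), and the extracellular superoxide dismutase SOD3 from 174, 153 and 145 to 321, 365 and 387 (1.18 ± 0.14, adjusted p = 0.000135). The cystine transporter SLC7A11, which feeds glutathione synthesis, was 616, 403 and 419 in control and 715, 1093 and 1052 in resistant cells (0.99 ± 0.21, adjusted p = 0.0123), a call that was lost in the table over all libraries (adjusted p = 0.0682). Further rises were those of GCLC (0.97), the catalytic subunit of glutathione synthesis, ABCC3 (0.88), SOD2 (0.66), TRIM16 (0.64), TRIM16L (0.56), OSGIN1 (0.55) and EPHX1 (0.52), and the only fall was that of AKR1B1 (-0.71), a paralog of AKR1B10. Of the 14 rises, 11 were on chromosomes other than 4 and 9. In the table over all libraries 8 of the members were called higher.

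Drug-metabolizing and transport genes overlapped with this picture. Of 41 phase I and II genes tested, 7 rose and 1 fell. The cytochrome CYP1B1 rose from 287, 295 and 532 to 1145, 1114 and 618 (1.38 ± 0.26, adjusted p = 0.00542), CYP3A5, a member of the family that metabolizes Rego, from 185, 150 and 176 to 301, 373 and 316 (0.95 ± 0.14, adjusted p = 0.00111), and the fatty aldehyde dehydrogenase ALDH3A2 from 718, 660 and 655 to 1352, 1470 and 1483 (1.08 ± 0.17, adjusted p = 0.00145). ALDH2 (0.69), the carboxylesterase CES2 (0.68), ADH5 (0.57) and CYP2J2 (0.45) rose to a lesser extent, and nicotinamide N-methyltransferase, NNMT, fell from 1645, 1627 and 1430 to 669, 677 and 770 (-1.15 ± 0.18, adjusted p = 0.00112). The call of CYP1B1 was lost with robust moderation of variances (adjusted p = 0.0966), and the third pair of libraries lay closer together than the others. Of 23 ABC transporters, 3 rose and none fell. ABCC3, an exporter of conjugates, went from 456, 342 and 501 to 740, 986 and 673 (0.88 ± 0.19, adjusted p = 0.0150), the lipid transporter ABCA3 from 120, 118 and 123 to 203, 205 and 198 (0.75 ± 0.12, adjusted p = 0.00165) and the multidrug exporter ABCG2 from 119, 109 and 110 to 174, 190 and 188 (0.71 ± 0.12, adjusted p = 0.00279).

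Amino acid metabolism included single changes. GLS2, a mitochondrial enzyme of liver that breaks down glutamine, rose from 78, 76 and 76 to 125, 127 and 128 (0.72 ± 0.11, adjusted p = 0.00159). In that list of 31 genes 3 rose and 2 fell. Of 41 genes of the ATF4 response to amino acid shortage 4 rose, among them the serine synthesis enzymes PHGDH (0.84) and PSPH (0.69) and the lipoprotein receptor VLDLR, from 100, 94 and 90 to 207, 218 and 229 (1.20 ± 0.12, adjusted p = 3.39e-05), and none fell. In the table over all libraries 2 members of the list were called, and PHGDH was not (adjusted p = 0.0564). Lipid genes had few calls, with 1 of 30 cholesterol genes higher (MSMO1, 0.76) and 3 of 39 fatty acid genes lower, among them the elongase ELOVL2 (-0.89) and the lipid droplet protein PLIN3 (-0.85). Of 47 lysosome and autophagy genes 3 rose and none fell, led by cathepsin D, CTSD, from 863, 853 and 657 to 1848, 1870 and 2430 (1.37 ± 0.20, adjusted p = 0.000686), with GABARAPL1 (0.72) and CTSS (0.69).

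Interferon-stimulated genes, which interferons and cytosolic nucleic acids induce through STAT and IRF factors, rose without exception among the members called. Of 50 tested, 10 rose and 0 fell, with a median of 0.18 and pair medians of 0.05 to 0.41. The guanylate-binding protein GBP4 had library values of 116, 87 and 113 in control and 267, 356 and 275 in Rego-resistant cells (1.51 ± 0.15, adjusted p = 4.06e-05, 9.74-fold by counts), and GBP2 rose from 251, 225 and 298 to 690, 769 and 581 (1.40 ± 0.17, adjusted p = 0.000144). Tetherin, BST2, which retains viruses at the cell surface, went from 98, 96 and 111 to 202, 206 and 178 (0.94 ± 0.13, adjusted p = 0.000380). IFI44 rose from 100, 67 and 92 to 134, 200 and 147 (0.89 ± 0.17, adjusted p = 0.00618), IFI44L from 110, 83 and 134 to 181, 239 and 148 (0.80 ± 0.19, adjusted p = 0.0213) and the DNA sensor IFI16 from 365, 335 and 564 to 812, 887 and 526 (0.82 ± 0.23, adjusted p = 0.0466). In IFI16 the third control library exceeded the third resistant one, and its call was lost in 5 of the alternatives, with adjusted p from 0.0568 to 0.0918. DDX60 (0.64), HERC5 (0.58), HERC6 (0.45) and EPSTI1 (0.47) completed the group, of which DDX60, HERC5 and HERC6 lie on chromosome 4. BST2 lies on chromosome 19, whose median was lowered. Moderation of variances without a trend gave 5 rises in this list. With the chromosomes 4, 9, 15 and 19 left out, 4 of its members rose, compared to 8 of the NRF2 list.

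Promoters of IFI44L, GBP4 and DDX60 are shown since these genes rose and hold a motif known to bind interferon-regulated factors. Capitals mark matches, on either strand, to TTTC repeated after 2 bases of any kind, a short form of the interferon-stimulated response element, and the sequences are from RefSeq (GRCh38.p14), 250 bases before to 50 after the start, read 5′ to 3′ on the strand of the gene: IFI44L at chr1:78620198-78620497 (plus strand), GBP4 at chr1:89198893-89199192 (minus strand) and DDX60 at chr4:168318703-168319002 (minus strand). IFI44L has 2 matches within a repeated stretch, DDX60 has 2 and GBP4 has 1 that begins 4 bases before the start and runs across it.
IFI44L: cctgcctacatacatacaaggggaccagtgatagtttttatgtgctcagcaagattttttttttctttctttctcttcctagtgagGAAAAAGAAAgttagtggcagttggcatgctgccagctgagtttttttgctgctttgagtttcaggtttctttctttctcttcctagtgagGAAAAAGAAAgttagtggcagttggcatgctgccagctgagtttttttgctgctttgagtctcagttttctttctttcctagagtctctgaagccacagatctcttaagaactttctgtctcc
GBP4: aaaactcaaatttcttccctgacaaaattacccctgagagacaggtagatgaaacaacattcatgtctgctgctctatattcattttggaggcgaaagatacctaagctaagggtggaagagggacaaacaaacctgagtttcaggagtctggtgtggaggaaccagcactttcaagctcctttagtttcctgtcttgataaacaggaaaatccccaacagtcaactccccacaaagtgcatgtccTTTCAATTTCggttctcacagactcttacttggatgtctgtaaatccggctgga
DDX60: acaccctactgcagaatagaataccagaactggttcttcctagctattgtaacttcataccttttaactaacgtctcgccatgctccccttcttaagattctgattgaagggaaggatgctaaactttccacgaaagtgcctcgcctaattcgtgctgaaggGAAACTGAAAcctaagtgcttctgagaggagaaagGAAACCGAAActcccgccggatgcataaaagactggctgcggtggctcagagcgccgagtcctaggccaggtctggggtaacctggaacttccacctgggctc

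Of the 9 called interferon-stimulated genes with a promoter in the RefSeq table, 7 held the motif (77.8%), as did 20 of 27 tested members that were not called (74.1%), compared to 3.57% of all promoters. Called and uncalled members thus had near-equal shares.

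Of 40 targets of NF-kB, cytokines and chemokines tested, 8 rose and 1 fell, while 15 lay below 0. With the chromosomes 4, 9, 15 and 19 left out, 5 rose. The adhesion molecule VCAM1 rose from 115, 93 and 125 to 235, 293 and 217 (1.16 ± 0.15, adjusted p = 0.000310), the apoptosis inhibitor BIRC3 from 513, 326 and 440 to 764, 1202 and 891 (1.16 ± 0.21, adjusted p = 0.00398) and the NF-kB inhibitor NFKBIA, itself induced by NF-kB, from 670, 446 and 615 to 872, 1309 and 950 (0.85 ± 0.21, adjusted p = 0.0240). Of the chemokines, CCL2 went from 154, 144 and 112 to 231, 248 and 317 (0.96 ± 0.16, adjusted p = 0.00224), with CX3CL1 (0.79) and CXCL5 (0.73) beside it, and IL15 rose by 0.72. IL11 was the only fall, by 0.71 on the log2 scale. Antigen presentation genes had 1 rise (TAPBPL, 0.56) and 1 fall (CALR, -0.88) among 29, and of 24 STAT and SOCS genes only the kinase PIM2 was called (-0.50). The call of PIM2 was lost with spike-in centring, without a variance trend and in the table over all libraries (adjusted p = 0.226, 0.0639 and 0.0521).

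Growth factor receptors included few calls. None of 5 TAM receptors and ligands was called. AXL had library values of 100, 125 and 97 in control and 125, 100 and 129 in Rego-resistant cells (0.14 ± 0.14, adjusted p = 0.637), TYRO3 162, 182 and 158 and 172, 153 and 177 (adjusted p = 1) and MERTK 103, 97 and 94 and 96, 102 and 105 (0.04 ± 0.12, adjusted p = 0.874), with overlapping groups throughout. GAS6 was lower in each resistant library, 235, 258 and 209 against 181, 165 and 203, but did not pass the test (-0.35 ± 0.14, adjusted p = 0.157). Such a separation downwards was seen in 19.9% of all genes. Of 16 ErbB receptors, ligands and feedback inhibitors, none rose and 2 fell. The receptor values were 680, 746 and 735 against 974, 888 and 901 for EGFR (0.35 ± 0.16, adjusted p = 0.235), 184, 194 and 180 against 202, 192 and 207 for ERBB2 (0.11 ± 0.13, adjusted p = 0.679), 117, 114 and 114 against 130, 133 and 133 for ERBB3 (0.20 ± 0.12, adjusted p = 0.359) and 93, 88 and 86 against 89, 95 and 97 for ERBB4 (0.07 ± 0.12, adjusted p = 0.771). ERBB3 and ERBB4 lay near the floor of the library values, where small differences are not detectable. EGFR and ERBB3 were higher in each resistant library without passing the test, a separation that 20.8% of all genes showed.

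The falls in that list were both EGFR ligands. EREG went from 524, 407 and 646 to 171, 220 and 139 (-1.57 ± 0.19, adjusted p = 0.000183, 4.72-fold lower by counts) and amphiregulin, AREG, from 299, 252 and 323 to 150, 178 and 139 (-0.90 ± 0.15, adjusted p = 0.00185, 2.86-fold). They are neighbors on chromosome 4 (EREG chr4:74365145-74388749, AREG chr4:74445136-74455005), on which 78 genes rose and only 4 fell. Of 9 kinases inhibited by Rego none was called. Among 9 FGF genes, FGFR4, the hepatocyte receptor, rose from 164, 171 and 174 to 280, 268 and 264 (0.67 ± 0.13, adjusted p = 0.00529) and FGF1 fell (-0.52), while FGF2, the gene of bFGF, had 532, 525 and 509 and 616, 624 and 643 (0.27 ± 0.15, adjusted p = 0.353) and FGFR1 1365, 1080 and 1344 and 1471, 1858 and 1493 (0.35 ± 0.19, adjusted p = 0.335). Of 17 other receptor tyrosine kinases, ROR2 rose (0.55) and the ephrin receptors EPHA7 (-1.01) and EPHB4 (-0.46) fell. The call of EPHB4 was lost with spike-in centring and without a variance trend (adjusted p = 0.295 and 0.0562). It was also lost in the table over all libraries and with chromosomes 4, 9, 15 and 19 left out (adjusted p = 0.0591 and 0.0546). 27 genes of MAPK output and feedback included no rise and 2 falls, the phosphatase DUSP7 (-0.59) and the transcription factor ETV5 (-0.56).

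In other signaling pathways, calls were mostly of ligands, binding proteins and antagonists. The IGF axis had 3 rises and 2 falls in 14 genes, with IGFBP7 from 2255, 2956 and 3125 to 7361, 5616 and 5312 (1.13 ± 0.23, adjusted p = 0.00882), IGFBP3 (0.90) and the receptor substrate IRS2 (0.90) higher and STC1 and IGFBP1 (-0.64) lower. The call of IGFBP1 was lost with spike-in centring, without a variance trend and in the table over all libraries (adjusted p = 0.0549, 0.0672 and 0.171). In the Wnt list of 33 genes 1 rose and 4 fell. The antagonists DKK1 and SFRP1 fell, the latter from 424, 516 and 609 to 171, 141 and 119 (-1.85 ± 0.17, adjusted p = 1.70e-05), together with the ligand WNT5A, from 595, 470 and 496 to 190, 240 and 228 (-1.25 ± 0.16, adjusted p = 0.000218), and the receptor FZD3 (-0.68), whereas SFRP4 rose (0.68). Of 41 TGF-beta and BMP genes 3 rose and 4 fell. INHBB rose from 112, 143 and 111 to 383, 301 and 388 (1.55 ± 0.15, adjusted p = 2.70e-05) while the activin antagonist FST fell (-0.66), and the ligand BMP4 (-1.08) and the BMP antagonist GREM1 (-0.93) fell both. Of the BMP targets, ID1 rose (0.74) and ID3 fell (-0.91). The Notch list of 19 genes had 1 rise (NUMBL, 0.63) and 2 falls (DNER, -1.08, and HES1, -0.77), with 0 falls both with robust moderation (adjusted p = 0.0691 and 0.0695) and in the table over all libraries (0.125 and 0.0573). The YAP and TEAD list of 30 had no rise and 2 falls (FOXF2, -0.69, and NT5E). Angiogenic ligands rose in 2 of 24 cases (PDGFC, 1.17, and VEGFB, 0.57), with THBS1, an inhibitor of angiogenesis, as the fall. The call of VEGFB was lost in the table over all libraries and with chromosomes 4, 9, 15 and 19 left out (adjusted p = 0.0598 and 0.0541).

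Most proliferation genes lay below 0, few of them called. Of 83 genes of G2 and mitosis, 0 rose and 5 fell, but 72 lay below 0 and the median was -0.24. The proliferation antigen MKI67 had library values of 2009, 2518 and 2785 in control and 1607, 1282 and 1159 in resistant cells (-0.85 ± 0.21, adjusted p = 0.0257), and the mitotic regulator CDC20 776, 868 and 715 and 485, 434 and 527 (-0.71 ± 0.17, adjusted p = 0.0209). The call of MKI67 was lost in the table over all libraries (adjusted p = 0.0583). PLK1 (-0.63), BUB1B (-0.59) and BUB1 (-0.52) were the other falls. Of 62 genes of replication licensing and S phase, 0 rose, 5 fell and 54 lay below 0 (median -0.20), with the helicase subunit MCM7 at -0.68 and the histone chaperone CHAF1A at -0.72. The call of MCM7 was lost with a minimum count of 50 and without a variance trend (adjusted p = 0.0520 and 0.0655). It was also lost with chromosomes 4, 9, 15 and 19 left out (adjusted p = 0.0729). The pair medians ran from -0.54 to 0.02 for mitosis and from -0.49 to 0.01 for S phase, so that 1 of the 3 pairs showed no shift. Spike-in centring moved both medians to -0.14 and -0.09 and left 2 and 4 calls.

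Lists of household and stress functions contained few calls. Of 77 cytosolic ribosomal protein genes, RPS3A (1.05) and RPL34 (0.95) rose, both on chromosome 4, with pseudogene copies as a further uncertainty. Of 76 nuclear genes of oxidative phosphorylation only COX5A fell (-0.65), and none of 13 mitochondrially encoded mRNAs was called (median -0.35). 21 heat shock genes had a median of -0.32 with 1 call, the co-chaperone BAG3 (-0.65), and 3 of 33 genes of the unfolded protein response fell, namely CALR, SDF2L1 (-0.78) and DNAJB11 (-0.65), while none rose. Glycolysis and the hypoxia response had no rise and 2 falls in 46 genes (CA12, -0.60, and HK1, -0.55), CDK inhibitors and p53 targets 1 fall in 31 (AEN, -0.67), and the BCL2 family 1 fall in 18 (BCL2L12, -0.66). Of 6 metallothioneins, MT2A fell from 11490, 18962 and 16967 to 8547, 5179 and 5788 (-1.28 ± 0.27, adjusted p = 0.0126). S100 genes had 3 rises, S100A4, S100P (0.66) and S100A3 (0.63), and 1 fall, S100A16 (-0.89), in 9. Without a variance trend the calls of S100P and S100A3 were lost (adjusted p = 0.0746 and 0.0615). Of 16 stem-cell and persister markers ABCG2, CXCR4 (0.55) and KLF4 (0.59) rose. Of these rises 2 were on chromosomes 4 and 9, and 0 were called among genes with a mean count of at least 50.

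**Figure D3:**
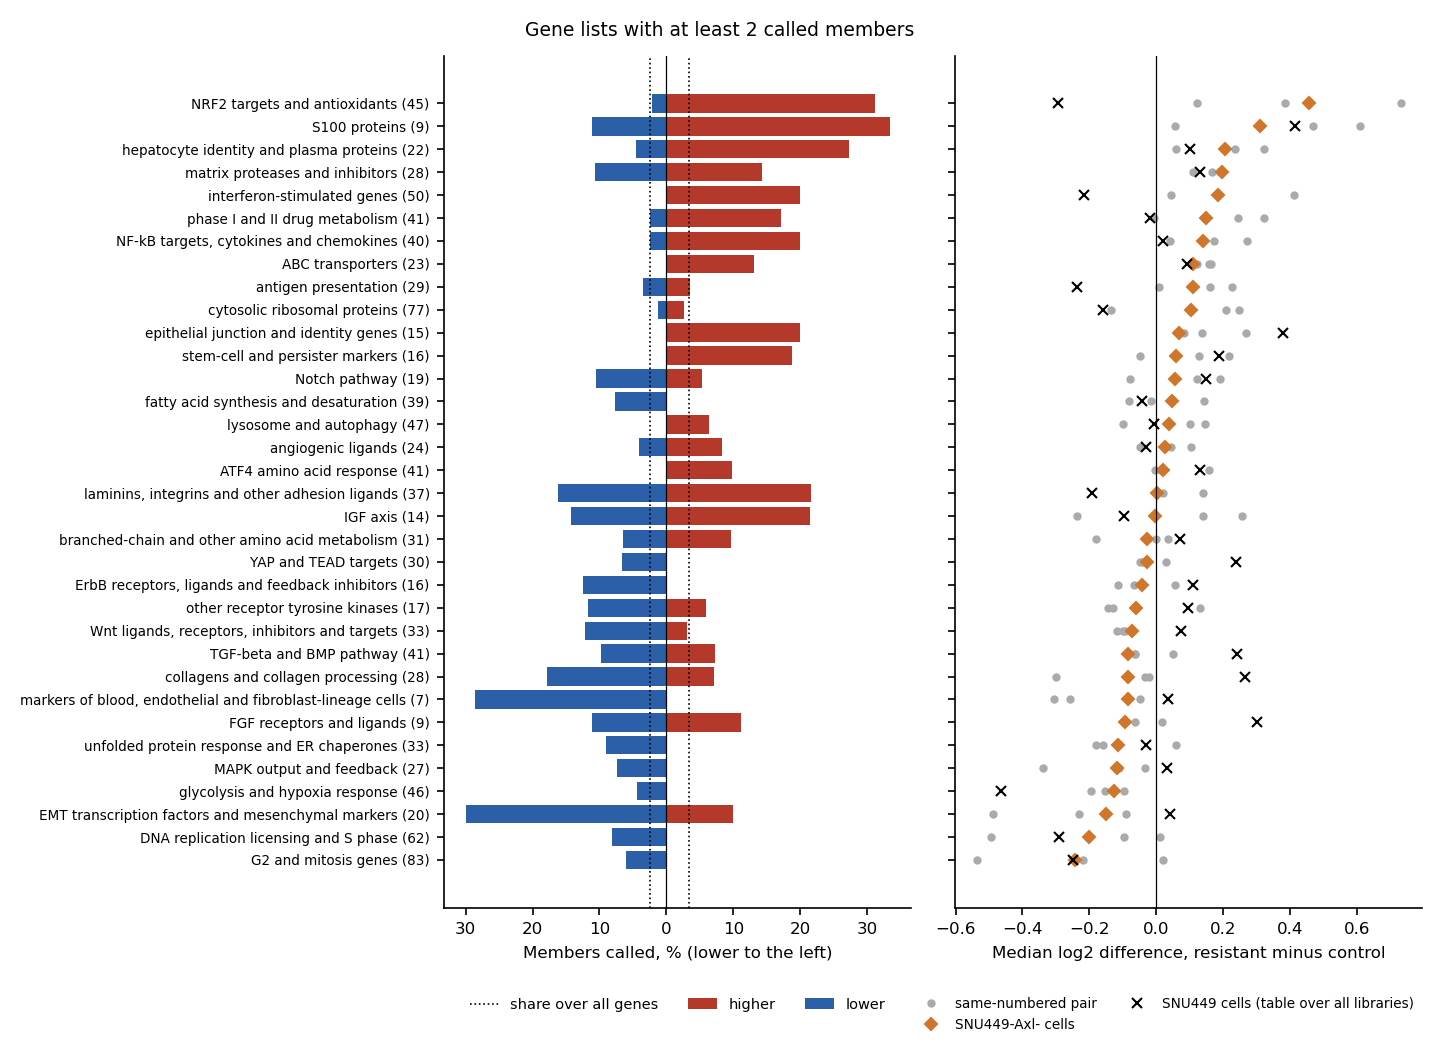
Gene lists with at least 2 called members, with the number of genes tested in parentheses. Left, the share of members called higher (red) and lower (blue) in Rego-resistant SNU449-Axl- cells, with dotted lines at 3.3% and 2.42%, the shares over all genes. Right, the median log2 difference of each list (orange), of each same-numbered pair of libraries (grey) and in SNU449 cells (crosses). NRF2 targets are highest at 0.46 and G2 and mitosis genes lowest at -0.24.

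Changes were distributed unevenly over chromosomes. On chromosome 4, 78 genes rose and 4 fell of 518 tested, and on chromosome 9 60 rose and 2 fell of 566. The median difference was 0.21 on both, which corresponds to median folds of 1.39 and 1.45 by counts. The reverse held for chromosome 15, with 7 rises and 34 falls of 447 (median -0.12), and for chromosome 19, with 17 rises and 74 falls of 999 (median -0.10). Medians of the 19 remaining chromosomes, X included, ranged from -0.07 to 0.05. Spike-in centring raised the medians of all chromosomes. Those of chromosomes 15 and 19 became -0.01 and 0.01 and were still the lowest. The remaining ones then ranged from 0.04 (chromosome 3) to 0.15 (chromosome 8), and chromosomes 4 and 9 both stood at 0.32. Chromosomes 4 and 9 held 7.59% of the genes tested and 29.2% of those that rose, and chromosomes 15 and 19 held 10.1% of the genes tested and 31.2% of those that fell. With all 4 chromosomes left out, an alternative added after seeing the data, 402 of 11757 genes were called, 239 higher and 163 lower.

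**Figure D4:**
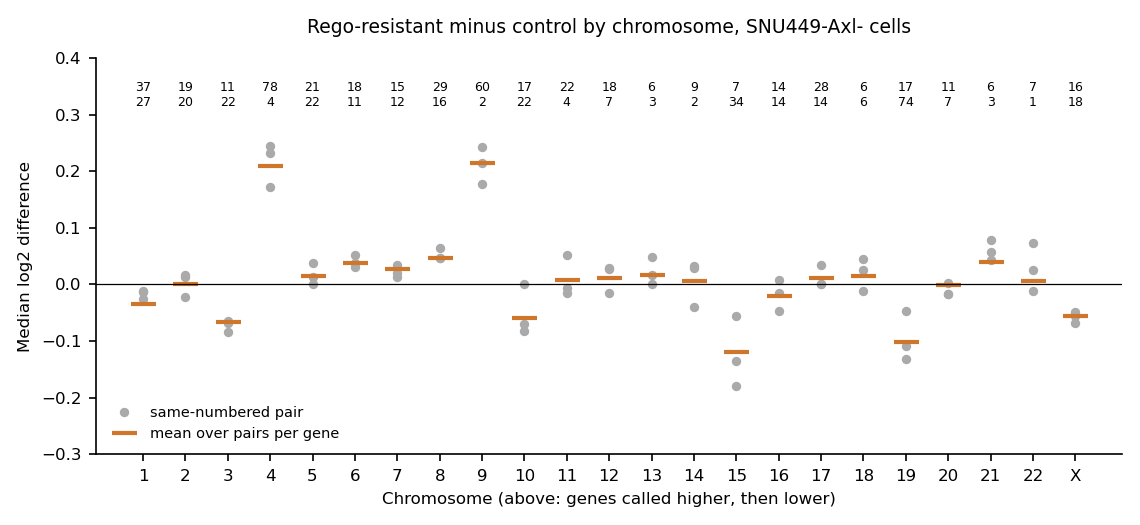
Median log2 difference between Rego-resistant and control SNU449-Axl- cells over the genes of each chromosome, for each same-numbered pair of libraries (grey points) and for the mean over pairs per gene (orange bars). Numbers above are the genes called higher and, below them, lower. Chromosomes 4 and 9 lie above and 15 and 19 below 0 in all 3 pairs.

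Within these chromosomes the shift covered long stretches, whose borders were set after seeing the values. On chromosome 4, 164 genes up to OCIAD2 at 48.9 Mb had a median of 0.05, and 354 genes from DCUN1D4 at 51.8 Mb to FRG1 at 190.0 Mb one of 0.30, with 70 rises (1.57-fold by counts). The highest run of 25 neighboring genes, from PLRG1 to DDX60 (154.5 to 168.3 Mb), reached 0.43 and 2.27-fold, and it begins beside the fibrinogen genes. Chromosome 9 was raised on both sides of its centromere, with medians of 0.18 and 0.23. On chromosome 15, 425 genes beyond 30 Mb were lowered to a median of -0.13 with 5 rises and 34 falls, the latter including THBS1, GREM1, MGA and BUB1B. The 22 genes before 30 Mb, which end at TJP1, had a median of 0.26 with 2 rises and 0 falls. Chromosome 19 alternated. Between 1.5 and 24.1 Mb 57 of 406 genes fell (median -0.19, 0.714-fold by counts), from 27.7 Mb to the AXL gene 11 of 170 rose and none fell (median 0.13), and distal to AXL (chr19:41219223-41261766) 16 of 376 fell (median -0.12). The part of the position of a gene in its change was not tested, and the copy number of these cells was not analysed here.

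Comparison with the Axl-proficient background asked which of these effects differ between SNU449-Axl- and SNU449 cells. The difference of the Rego effect between backgrounds passed the test for 918 of 15601 genes (5.88%, limma interaction term with the replicate number as a block), of which 451 (2.89%) had the more positive effect in SNU449-Axl- cells and 467 (2.99%) the more negative one. Among the 818 genes called in SNU449-Axl- cells, 331 differed in this way (40.5%), and 283 of them had the opposite sign in SNU449 cells. As the effect in SNU449-Axl- cells enters both selections, this share is a description only.

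NRF2 targets and antioxidants had the largest share of such differences among the lists. Of 45 genes, 18 had a more positive and 0 a more negative effect in SNU449-Axl- cells, and the list medians in the table over all libraries were 0.51 in SNU449-Axl- and -0.29 in SNU449 cells. The effect on AKR1C3 was 1.72 in SNU449-Axl- and -1.27 in SNU449 cells, a difference of 2.99 ± 0.40 (SE, adjusted p = 0.000182), and that on AKR1B10 3.40 and 0.08 (difference 3.32 ± 0.37, adjusted p = 3.83e-05). Keratins had 0 more positive and 3 more negative effects of 8, and mitochondrially encoded mRNAs 0 and 4 of 13 (medians -0.33 and 0.43). Interferon-stimulated genes had 14 more positive and 1 more negative effects of 50 and medians of 0.28 and -0.21. GBP4 rose by 2.29 in SNU449-Axl- cells and fell by 1.33 in SNU449 cells on the log2 scale (difference 3.62 ± 0.41, adjusted p = 4.25e-05). Phase I and II enzymes had 6 and 1 such differences, antigen presentation genes 5 and 1, Wnt genes 1 and 5, TGF-beta and BMP genes 1 and 5, and ErbB genes 0 and 4.

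Among the largest differences were genes near the floor in 1 of the backgrounds or states. VCAM1 had log2 library values of 5.44 ± 0.41 before and 7.21 ± 0.60 after adaptation in SNU449-Axl- cells (SD, n = 3), against 9.71 ± 1.03 before and 5.65 ± 0.44 after adaptation in SNU449 cells, a difference of effects of 5.83 ± 0.56 (adjusted p = 8.97e-06). FN1 rose in SNU449-Axl- cells, from 8.85 to 11.33, and fell in SNU449 cells, from 11.10 to 8.86 (difference 4.73 ± 0.52, adjusted p = 3.42e-05). HLF, APOL1 and UCHL1 were highest in SNU449 control cells and fell there upon adaptation. The opposite direction was led by IGFBP5, whose log2 library value was 4.62 ± 0.35 before and 5.03 ± 0.49 after adaptation in SNU449-Axl- cells but 4.70 ± 0.14 before and 12.54 ± 0.77 after adaptation in SNU449 cells (difference -7.43 ± 0.45, adjusted p = 1.12e-08). COL1A1 followed with 10.41 ± 1.25 before and 7.62 ± 0.43 after adaptation in SNU449-Axl- cells and 7.27 ± 1.58 before and 9.24 ± 0.66 after adaptation in SNU449 cells (difference -4.75 ± 0.86, adjusted p = 0.00273). The keratins KRT81 and KRT7 rose from near the floor in SNU449 cells, where KRT81 went from 5.33 to 10.07, while control SNU449-Axl- cells already stood at 10.06. MMP7 rose in both backgrounds, by 5.74 and 3.58, and by more in SNU449-Axl- cells (difference 2.15 ± 0.36, adjusted p = 0.00151), a call that was lost without replicate 1 or 2 (adjusted p = 0.0611 and 0.126). The difference in COL1A1 was lost without replicate 2 (adjusted p = 0.0844). Leaving out replicate 1, 2 or 3 gave 255, 120 and 724 differing genes.

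Of the receptors and ligands, ERBB4 and GAS6 differed between the backgrounds. ERBB4 had log2 library values of 4.98 ± 0.17 before and 5.10 ± 0.06 after adaptation in SNU449-Axl- cells and 4.56 ± 0.04 before and 5.63 ± 0.21 after adaptation in SNU449 cells (difference -0.95 ± 0.26, adjusted p = 0.0337). GAS6 had 7.09 ± 0.25 before and 6.55 ± 0.25 after adaptation in SNU449-Axl- cells and 6.29 ± 0.29 before and 7.04 ± 0.26 after adaptation in SNU449 cells (difference -1.29 ± 0.31, adjusted p = 0.0189). Both calls were lost with spike-in centring (adjusted p = 0.138 and 0.0559). That of ERBB4 was also lost without replicate 1, 2 or 3 (adjusted p = 0.150, 0.251 and 0.117), and that of GAS6 without replicate 1 or 2 (adjusted p = 0.142 and 0.163). EREG fell in SNU449-Axl- cells by 2.22 and stood at a difference of -0.01 in SNU449 cells (difference of effects -2.21 ± 0.46, adjusted p = 0.00721), a call that was lost without replicate 1 or 2 (adjusted p = 0.130 and 0.0735). For AXL, EGFR, ERBB2, ERBB3, TYRO3, MERTK, FGF2 and FGFR1 the difference between backgrounds did not pass the test, with adjusted p from 0.161 to 0.940. Of the stretches above, the raised one of chromosome 4 (median 0.43 in SNU449-Axl- cells in this table) had a median of -0.09 in SNU449 cells, and the lowered stretch of chromosome 19 between 1.5 and 24.1 Mb (-0.29) one of 0.30. Chromosome 19 distal to AXL likewise had -0.18 and 0.37. In contrast, chromosome 15 beyond 30 Mb was low in both backgrounds (-0.19 and -0.16), and chromosome 19 from 27.7 Mb to AXL was high in both (0.20 and 0.33).

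**Figure D5:**
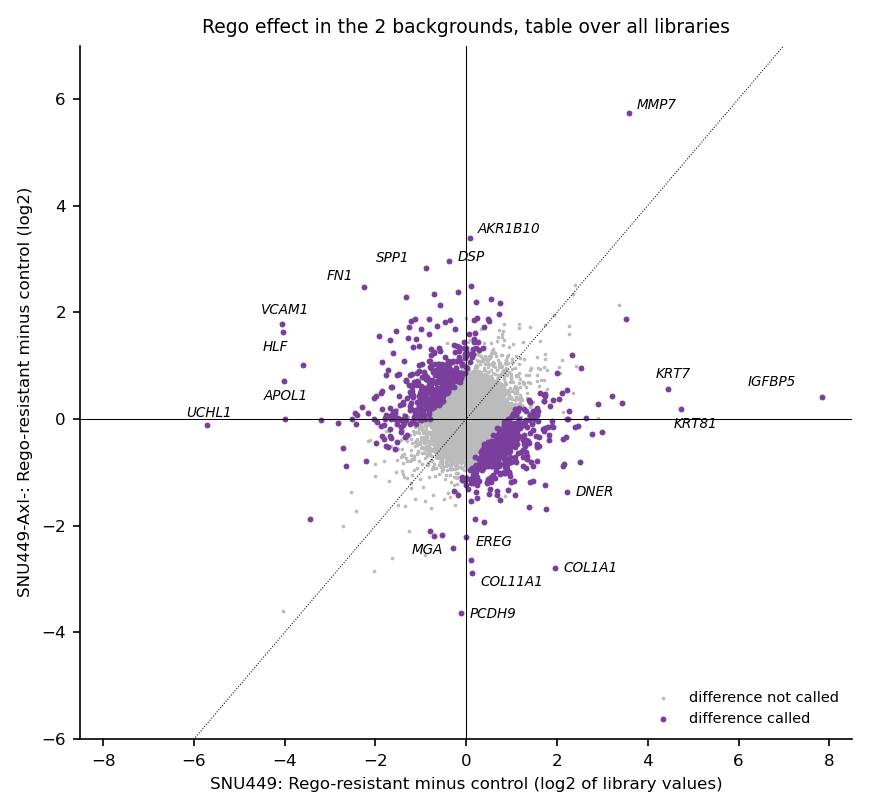
Rego effect in SNU449-Axl- cells (y axis) against that in SNU449 cells (x axis), both as Rego-resistant minus control on the log2 scale of library values, for 15601 genes in the table over all libraries. Purple points are the 918 genes whose effect differed between backgrounds, and the dotted line marks equal effects. FN1 and VCAM1 lie in the upper left and COL1A1 and DNER in the lower right quadrant.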

How the data were processed

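QuantSeq 3′ libraries were prepared and sequenced by a service provider. According to the methods and the submitters' processing notes, reads were trimmed with cutadapt 4.0 and aligned with STAR 2.5.3a to GRCh38 with GENCODE v40 and spike-in sequences. The authors removed weakly expressed genes, ran DESeq2 with a term for the date of preparation, stabilized the variance and removed the date effect with limma. The deposited library values, used here as a score, are whole numbers read as this stabilized level taken out of log2, a reading inferred from the values. The deposited mean normalized count is a signal without replicates, 1 mean over both groups in each of 6 pair tables. Group means were solved from these means. A count fold was kept where the lower group mean exceeded both 3 and 10 times the misfit of the solution. Median folds of chromosomes and stretches used genes with a mean of at least 50. Those of runs of 25 genes used every gene with a fold, so the kinds of median cover unlike sets of genes. Columns with the authors' fold changes, standard errors, test statistics and p-values were not used. Aligning reads that match many places can divide signal between paralogs.

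In the pair table, 14287 genes in 6 libraries were fitted on log2 values with limma 3.58.1 (R 4.3.3), with the replicate number as a block and a variance trend, and p-values were adjusted after Benjamini-Hochberg over all genes. Spike-ins were left out, 25 in this table and 32 in the table over all libraries. That table, with 15601 genes, served for the interaction, also with the block. Same-numbered libraries of the groups deviated from their group means in opposite directions, with correlations from -0.99956 to -0.99952. Such mirror images may be left where a date effect that goes with the replicate number was removed. With them, the SDs of a gene in the groups of the pair table are near-equal and not independent. For MMP7 they were 0.291 in control and 0.288 in Rego-resistant libraries on the log2 scale. The dates were not used here, so whether numbers mark dates is unsure. If they do, the fit without the block counts residual degrees of freedom that the correction had already taken. Alternatives were count minimums, pseudocounts, centring on medians, upper quartiles or spike-ins, no block, other variance moderation, the table over all libraries and leaving out each replicate. The fit was tested on simulated data. Genes and lists were chosen with earlier results of these data known. Named were the 15 largest rises and falls among called genes without overlap, up to 6 called members per list, AXL, GAS6, TYRO3, MERTK, EGFR, ERBB2, ERBB3, ERBB4, FGF2 and FGFR1, and the 5 largest differences between backgrounds in each direction. Further called members were named to complete a list, after their values were seen.

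Gene positions and RefSeq promoters (GRCh38.p14) came from reference tables. Depth per library is unknown, as the library values are not read counts. Some results are not reported here.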

Additional observations from a re-analysis of the deposited data

Results flagged for a closer look

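The effect of Rego resistance differed between SNU449-Axl- and SNU449 cells in 918 genes by a test of the difference itself, the interaction term of limma in the blocked fit. The named ones among them, which include the largest differences in each direction, are given as SNU449-Axl- minus SNU449 on the log2 scale of library values.

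A more positive effect in SNU449-Axl- cells was found for VCAM1 (5.83), HLF (5.66), UCHL1 (5.60), FN1 (4.73), APOL1 (4.71), SPP1 (3.72), GBP4 (3.62), DSP (3.33), AKR1B10 (3.32), PLAAT4 (3.05), AKR1C3 (2.99), FYB1 (2.71), CLGN (2.55), FGB (2.38), MMP7 (2.15) and MAT1A (1.72). UCHL1 had near-equal levels before and after adaptation in SNU449-Axl- cells, 4.60 and 4.48, and its difference came from SNU449 cells, 10.20 and 4.48. A more negative effect was found for IGFBP5 (-7.43), COL1A1 (-4.75), KRT81 (-4.56), KRT7 (-3.88), DNER (-3.58), PCDH9 (-3.54), COL11A1 (-3.03), SFRP1 (-2.76), EREG (-2.21), MGA (-2.12), ARMCX3 (-1.66), CCBE1 (-1.48), GAS6 (-1.29) and ERBB4 (-0.95). IGFBP5, KRT81 and KRT7 rose in SNU449 cells and were not called in SNU449-Axl- cells.

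Some of these calls did not hold in all settings. CCBE1 was lost with spike-in centring, with a minimum count of 50 and without replicate 1 or 3 (adjusted p = 0.0677, 0.0516, 0.233 and 0.200). ERBB4 and GAS6 were lost with spike-in centring. With a replicate left out, calls were lost for ERBB4 (without 1, 2 or 3), GAS6, EREG, MAT1A and MMP7 (without 1 or 2), FGB (without 2 or 3), COL11A1 (without 1), and COL1A1, DNER, SFRP1 and FYB1 (without 2), with adjusted p from 0.0538 to 0.251.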

How the results depend on the processing

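With the replicate block removed, calls rose from 818 to 3566 for the Rego effect and from 918 to 1836 for the difference between backgrounds. The labels tie the numbers to no shared culture or date, and same-numbered libraries deviate in opposite directions. Leaving out a replicate gave 0 to 1 calls in the pair table, where 1595 to 2171 genes still had an unadjusted p under 0.05, 88 to 553 calls in the table over all libraries (217 without replicate 1, 88 without replicate 2), and 120 to 724 differences between backgrounds. The alternatives over all libraries with a replicate left out, and that without the genes of chromosomes 4, 9, 15 and 19 (402 calls), were chosen after seeing the data. Spike-in centring raised the share of rises among calls from 57.7% to 80.8% and that of more positive differences from 49.1% to 64.1%. Count minimums, pseudocounts, centrings and moderation gave 551 to 970 calls. A minimum count of 50 gave 551 calls of 8404 genes tested. Of 163 named genes, 21 lost their call with spike-in centring, 20 in the table over all libraries and 16 without a variance trend. RGS5, TIPIN, FABP5, PIM2, EPHB4 and IGFBP1 were among those that lost it in each of these settings.

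Genes that were called kept their direction. Reversals occurred in uncalled genes only. KRT7 ranged from -0.042 without replicate 1 to 1.07 without replicate 2, KRT81 from -0.21 to 0.49, MERTK from -0.015 to 0.12 and TYRO3 from -0.082 to 0.13. In the table over all libraries the values were -0.048 for KRT7 and -0.20 for KRT81 without replicate 1, -0.040 for MERTK without replicate 3, and 0.20 for TYRO3 without replicate 2 and 0.0041 with all libraries. TYRO3 was 0.11 with spike-in centring and 0.017 with upper quartiles. The cause was not tested.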
